A study of Mus musculus with 8 samples.

Results

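The genes described here had lower transcript levels in CypD knockout melanoma cells than in any other group of the study. They were chosen on measured values, as rows of the deposited TPM table (a relative abundance corrected for transcript length) in which the lowest of the 6 WT, Control and CypD OE libraries was at least 3 TPM and at least 2 times the higher of the 2 CypD KO libraries. Of 55414 genes in the table, 9908 met the floor of 3 TPM, and 9564 of these carried a named symbol. In all, 64 rows met both values. Predicted genes whose symbols begin with Gm (8 rows) and rows with an identifier but no symbol (2 rows) were left out, which left 54 members, or 0.565% of the named genes at the floor. Because the CypD KO levels chose these genes, they are given as a description with no test.

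RNA came from B16F10 cells, a mouse melanoma line, after 24 h of culture, and each of the 4 groups had 2 libraries. WT cells and CypD KO cells, in which CRISPR/Cas9 was used against *Ppif*, the gene of cyclophilin D (CypD), were kept at 21% oxygen. Control cells carried pcDNA without an insert, CypD OE cells were made to overexpress PPIF stably, and both were kept at 1% oxygen. The CypD KO cells were stably transfected clones selected with puromycin, and the vector and CypD OE cells were clones resistant to G418, so a difference between clones and a difference due to *Ppif* cannot be told apart here. Control and WT likewise differ both in oxygen and in the vector. No source says whether the 2 libraries of a group came from different cultures, so p-values measure only the spread between these libraries, which may be technical.

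CypD is a peptidyl-prolyl isomerase of the mitochondrial matrix that favours opening of the permeability transition pore, a channel that releases calcium and collapses the inner membrane potential. Melanoma cells descend from melanocytes, which share their neural crest origin with Schwann cells, and glial, neural and matrix genes are therefore often transcribed in melanoma. Several members belong to those classes, others to lipid signalling, vesicle traffic and transcription.

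**Figure D1:**
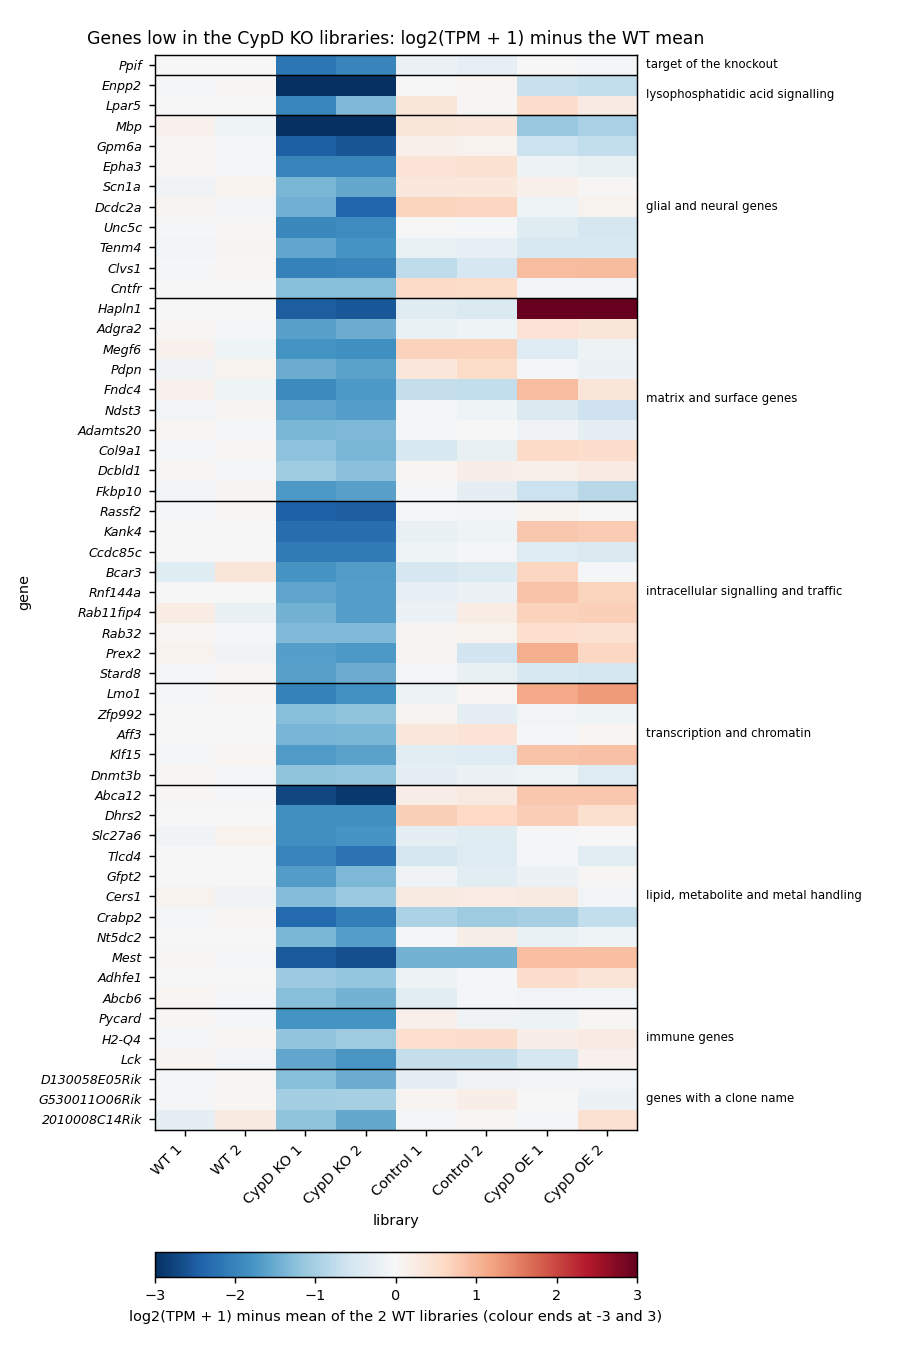
Colour gives log2(TPM + 1) minus the mean of the 2 WT libraries, for 53 of the 54 members (rows, grouped by role and ordered by ratio within a role) in 8 libraries (columns), with the colour scale ending at -3 and 3. Both CypD KO columns are blue in every row, which the rule required, while rows differ in the Control and CypD OE columns, with *Hapln1* the darkest red in CypD OE.

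The libraries were first compared as a whole. Between 17942 and 18335 genes were above 0 in the WT, Control and CypD OE libraries and 19456 to 19692 in the CypD KO libraries, and median-of-ratios size factors on TPM were 0.974 to 1.00 and 1.05 to 1.06, respectively. TPM has a fixed sum and carries no read total, so no counting interval could be given. Melanocyte and pigmentation genes, which mark the line, were above 1 TPM in at least 1 library for 32 of 33 genes, and their sum lay between 18639 and 28176 TPM in all libraries. Summed over 14 leukocyte markers, the level was 25.9 and 26.6 TPM in the CypD KO libraries and 2.43 to 6.10 TPM elsewhere. Of the 14, 3 reached 1 TPM in at least 1 library, while *Cd3e*, *Adgre1*, *Tyrobp*, *Cd3d* and *Ncr1* were at 0 in every library. The 12 fibroblast markers summed to 78.8 and 79.4 TPM in CypD KO against 19.01 to 37.7 TPM elsewhere. Of the 12, 6 reached 1 TPM in at least 1 library, while *Dcn*, *Thy1* and *Dpt* were at 0. The part of these markers in the results was not tested. Genes induced by low oxygen summed to 27308 and 28524 TPM in Control but to 9888 and 9929 TPM in CypD OE, although both groups are labelled as hypoxia, and to 11552 and 11905 TPM in WT and 20488 and 20711 TPM in CypD KO. These libraries are therefore referred to by their label.

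Summed over the 54 members, the WT libraries held 1095 and 1100 TPM, the CypD KO libraries 263 and 255 TPM, the Control libraries 1088 and 1100 TPM and those labelled CypD OE 1350 and 1318 TPM. The CypD KO mean of a member was 3.53% to 42.1% of its WT mean, with a median of 24.2%. The ratio that defined the group, the lowest other library over the higher CypD KO library, ran from 2.01 to 16.2 with a median of 2.76, and it was 3 or more in 20 members and 5 or more in 5. In bulk RNA, fewer transcripts per cell and fewer cells that transcribe a gene cannot be told apart. In 27 members, all 6 other libraries were at 10 TPM or more. Both CypD KO libraries were under 1 TPM in 3 members, *Hapln1*, *Mbp* and *Bcar3*. The 2 CypD KO libraries of a member differed by a factor of 1.12 at the median and of 2.20 at most, in *Dcdc2a*.

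The group was much narrower than the set low in CypD KO against WT alone. Of 9888 named genes with both WT libraries at 3 TPM or more, 139 (1.41%) had both CypD KO libraries at no more than 50% of the lower WT library. Of these 139 genes, 92 were also low against both Control libraries, 73 also against both CypD OE libraries, and 54 against both groups, while 28 were low against WT and against neither of the other groups. The same rule turned around, with CypD KO at least 2 times higher than every other library, was met by 388 named genes. Near the limit, *Fkbp10* (ratio 2.01), *Abcb6* (2.04), *2010008C14Rik* (2.07), *Adhfe1* (2.08) and *Dnmt3b* (2.08) were just inside it, and *Prr5* (1.99), *Slc4a4* (1.99), *2210418O10Rik* (1.98), *Xylt1* (1.97) and *Ttyh3* (1.95) were just outside.

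**Figure D2:**
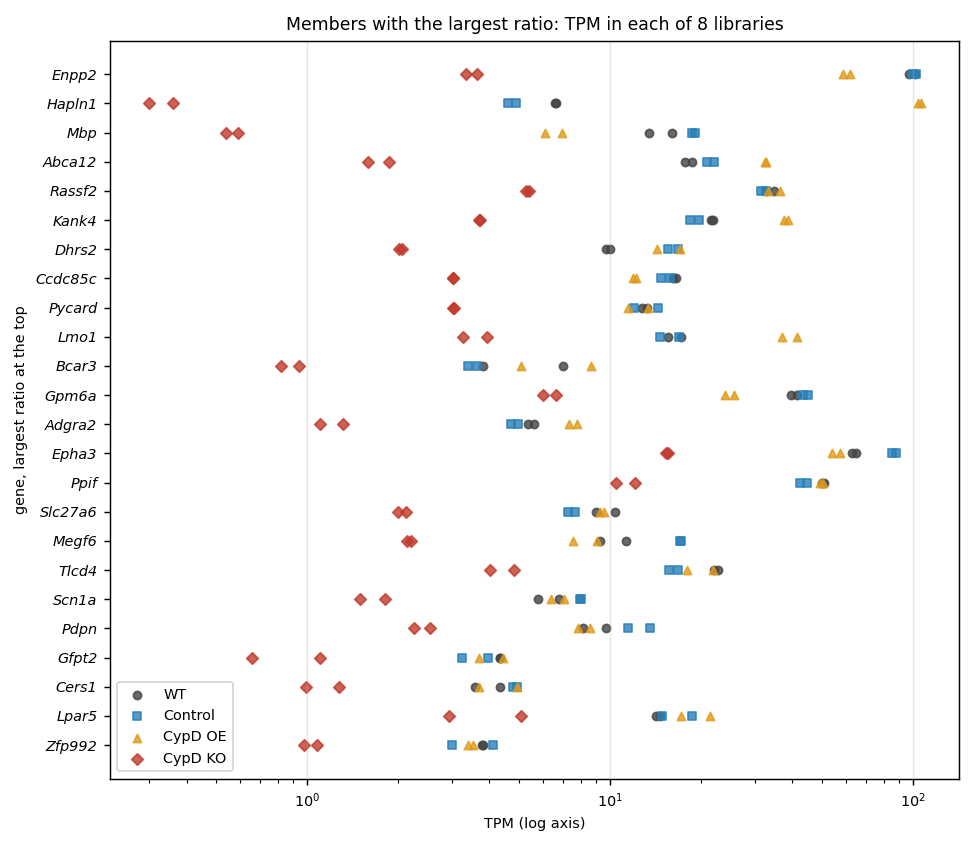
Points give TPM on a log axis in each of the 8 libraries for 24 of the 25 members with the largest ratio, ordered from the top. The 2 CypD KO libraries (diamonds) lie to the left of all others in each row, which the rule required, with *Enpp2* at 3.35 and 3.63 TPM against 58.9 TPM or more elsewhere.

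*Ppif* (ENSMUSG00000021868, chromosome 14 of GRCm39, 25694522 to 25707332), the targeted gene, was itself a member. Its level was 50.7 and 49.99 TPM in WT, 10.4 and 12.1 TPM in CypD KO, 44.6 and 42.2 TPM in Control and 50.3 and 49.3 TPM in CypD OE. The CypD KO mean was thus 22.4% of the WT mean, and 14 members had a larger ratio of the lowest other library to the higher CypD KO library than its 3.49. A gene-level TPM does not show which part of the transcript was left. Of the 19 genes of the pore and of mitochondrial calcium transport that were measured, 17 were at the floor in the 6 other libraries and *Ppif* was the only member, and the median CypD KO to WT ratio of those 17 was 1.01. For example, the adenine nucleotide carrier *Slc25a4* was at 379.7 and 361 TPM in WT against 368 and 383 TPM in CypD KO, and the outer membrane channel *Vdac1* at 475 and 464 TPM against 499 and 496 TPM.

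The largest ratio was that of *Enpp2* (ENSMUSG00000022425, chromosome 15, 54701324 to 54816288), which encodes autotaxin, a secreted enzyme that makes lysophosphatidic acid from lysophosphatidylcholine. It was at 96.6 and 101 TPM in WT, 3.35 and 3.63 TPM in CypD KO, 100.2 and 103 TPM in Control and 61.9 and 58.9 TPM in CypD OE, so that CypD KO held 3.53% of the WT mean. It was also the member with the highest mean over the 6 other libraries. *Lpar5* (ENSMUSG00000067714, chromosome 6, 125044883 to 125059435), a receptor for lysophosphatidic acid, was at 14.7 and 14.2 TPM in WT, 2.94 and 5.10 TPM in CypD KO, 18.7 and 14.9 TPM in Control and 21.3 and 17.2 TPM in CypD OE. Both the enzyme and this receptor were thus lower in CypD KO than in any other library. The remaining genes of the pathway did not share the pattern. *Lpar6* was at 3.12 and 2.43 TPM in WT against 3.4 and 3.34 TPM in CypD KO, *Lpar1*, *Lpar3* and *Lpar4* were under 0.1 TPM in all libraries, and the phosphatase *Plpp1*, which degrades lysophosphatidic acid outside the cell, was at 10.8 and 11.0 TPM in WT against 24.9 and 23.3 TPM in CypD KO. Over all 13 genes of the list, 5 were at the floor, and 2 of these were members.

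Genes of glia and neurons formed a class of 10 members, in which the CypD KO mean was 3.84% to 40.6% of the WT mean. The class, like the other role classes, was drawn up after the members and their values were known. *Mbp* (ENSMUSG00000041607), the myelin basic protein, was at 16.01 and 13.4 TPM in WT, 0.59 and 0.54 TPM in CypD KO, 19.11 and 18.7 TPM in Control and 6.10 and 6.96 TPM in CypD OE. This gene was thus transcribed in these melanoma cells, and both CypD KO libraries were under 1 TPM. Its gene-level TPM does not show which of its transcripts were made. *Gpm6a* (ENSMUSG00000031517), a membrane glycoprotein of neurons, was at 41.3 and 39.6 TPM in WT, 6.64 and 6.03 TPM in CypD KO, 45.05 and 43.4 TPM in Control and 25.6 and 23.9 TPM in CypD OE. *Scn1a* (ENSMUSG00000064329), a voltage-gated sodium channel, was at 5.78 and 6.78 TPM, 1.81 and 1.49 TPM, 8 and 7.98 TPM and 7.03 and 6.40 TPM in the same order.

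Receptors that guide axons or support neurons made up another part of this class. *Epha3* (ENSMUSG00000052504), a receptor tyrosine kinase for ephrin-A ligands, was at 65.0 and 62.9 TPM in WT, 15.3 and 15.5 TPM in CypD KO, 85.1 and 87.6 TPM in Control and 57.3 and 54.2 TPM in CypD OE. *Unc5c* (ENSMUSG00000059921), a netrin receptor, was at 48.9 and 52.1 TPM, 12.5 and 13.0 TPM, 51.1 and 48.3 TPM and 39.2 and 35.4 TPM in the same order. *Cntfr* (ENSMUSG00000028444), the receptor subunit that binds ciliary neurotrophic factor, was at 63.7 and 63.8 TPM, 25.9 and 25.9 TPM, 94.7 and 93.8 TPM and 59.8 and 60.6 TPM. These 3 receptors were among the 10 most abundant members, while *Cntfr* kept the larger share of its WT level (40.6%, against 24.1% for *Epha3* and 25.2% for *Unc5c*). *Clvs1* (ENSMUSG00000041216), a lipid-binding protein of clathrin-coated vesicles in neurons, was at 53.1 and 57.7 TPM in WT, 12.7 and 13.2 TPM in CypD KO, 32.3 and 38.7 TPM in Control and 106 and 108 TPM in CypD OE. The last 2 genes of the class, *Tenm4* (a teneurin of neuronal connections) and *Dcdc2a* (a doublecortin-domain protein), held 23.1% and 24.3% of the WT mean. For *Dcdc2a* the CypD KO libraries were apart, at 6.72 and 3.06 TPM. Of 18 axon guidance and neural crest genes at the floor in a list drawn up by hand, *Unc5c* was the only member. The median CypD KO to WT ratio of the 18 was 0.884. *Epha3* was not in that list.

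The 10 matrix and surface genes ranged from 5.0% to 41.6% of the WT mean. *Hapln1* (ENSMUSG00000021613, chromosome 13, 89686581 to 89759950), the link protein that ties hyaluronan to proteoglycans, was at 6.56 and 6.64 TPM in WT, 0.36 and 0.30 TPM in CypD KO, 4.90 and 4.60 TPM in Control and 106 and 104 TPM in CypD OE. Its 6 other libraries thus spanned a factor of 23.1, the widest of any member. *Megf6* (ENSMUSG00000057751), a secreted protein of EGF-like repeats, was at 11.2 and 9.25 TPM in WT, 2.21 and 2.13 TPM in CypD KO, 17.2 and 17 TPM in Control and 7.54 and 9.03 TPM in CypD OE. *Pdpn* (ENSMUSG00000028583), the surface glycoprotein podoplanin, was at 8.16 and 9.71 TPM, 2.55 and 2.26 TPM, 11.4 and 13.6 TPM and 8.59 and 7.81 TPM in the same order. It also stands in the fibroblast marker list, where it went opposite to *Col1a1*, which was at 2.22 and 1.66 TPM in WT against 38.5 and 41.1 TPM in CypD KO.

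*Fndc4* (ENSMUSG00000038552), a secreted protein with a fibronectin type III domain, was at 7.05 and 5.66 TPM in WT, 0.95 and 1.23 TPM in CypD KO, 3.43 and 3.37 TPM in Control and 12.9 and 8.37 TPM in CypD OE. *Adgra2* (ENSMUSG00000031486), an adhesion G-protein-coupled receptor that acts with Wnt7 ligands, was at 5.63 and 5.37 TPM, 1.10 and 1.31 TPM, 4.70 and 4.95 TPM and 7.80 and 7.34 TPM. *Fkbp10* (ENSMUSG00000001555), an endoplasmic reticulum isomerase that assists collagen folding, was at 9.93 and 11.2 TPM, 2.48 and 2.72 TPM, 10.2 and 8.62 TPM and 6.33 and 5.48 TPM. *Fkbp10* met the rule least clearly, because its libraries labelled CypD OE were also its lowest outside CypD KO. The other 4 genes of the class were *Ndst3* (21.4% of the WT mean in CypD KO), a heparan sulphate sulphotransferase, the collagen *Col9a1* (28.3%), the protease *Adamts20* (32.5%), which melanoblasts need to spread through the skin, and the membrane protein *Dcbld1* (41.6%).

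The 9 genes of intracellular signalling and traffic ranged from 15.8% to 38.6% of the WT mean. *Rassf2* (ENSMUSG00000027339), a Ras-association protein, was the steadiest member outside CypD KO, with 32.6 and 34.8 TPM in WT, 32.7 and 31.5 TPM in Control and 36.5 and 33.3 TPM in CypD OE, a span of 1.16 from lowest to highest, against 5.42 and 5.26 TPM in CypD KO. *Kank4* (ENSMUSG00000035407), which links talin to the cytoskeleton, was at 21.8 and 21.6 TPM in WT, 3.72 and 3.70 TPM in CypD KO, 18.3 and 19.6 TPM in Control and 38.7 and 37.6 TPM in CypD OE. *Ccdc85c* (ENSMUSG00000084883), a coiled-coil protein of apical junctions, was at 16.2 and 16.5 TPM, 3.02 and 3.02 TPM, 14.8 and 15.7 TPM and 12.2 and 11.9 TPM in the same order. For these 3 genes the CypD KO libraries differed from each other by a factor of at most 1.03. *Rab32* (ENSMUSG00000019832), a small GTPase that sends enzymes to melanosomes, was at 55.5 and 51.2 TPM in WT, 20.7 and 20.5 TPM in CypD KO, 56.7 and 57.0 TPM in Control and 76.0 and 73.6 TPM in CypD OE. *Prex2* (ENSMUSG00000048960), an exchange factor for Rac, was at 16.2 and 14.1 TPM, 4.16 and 3.90 TPM, 15.97 and 9.91 TPM and 33.5 and 23.7 TPM, and its Control libraries were apart from each other. *Bcar3* (ENSMUSG00000028121), an adaptor of integrin signalling, was low in every library and variable, at 3.82 and 6.98 TPM in WT, 0.82 and 0.94 TPM in CypD KO, 3.39 and 3.63 TPM in Control and 8.67 and 5.08 TPM in CypD OE. *Rnf144a* (an E3 ubiquitin ligase), *Stard8* (a GTPase-activating protein) and *Rab11fip4* (a Rab11 effector) held 29.1%, 29.8% and 28.1% of the WT mean.

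In transcription and chromatin, the 5 members ranged from 22.0% to 34.6% of the WT mean. *Lmo1* (ENSMUSG00000036111), a LIM-only cofactor of transcription, was at 15.5 and 17.2 TPM in WT, 3.26 and 3.92 TPM in CypD KO, 14.6 and 16.9 TPM in Control and 37.0 and 41.3 TPM in CypD OE. *Dnmt3b* (ENSMUSG00000027478), a de novo DNA methyltransferase, was at 5.90 and 5.63 TPM, 1.95 and 2.02 TPM, 4.49 and 5.01 TPM and 5.14 and 4.20 TPM in the same order. *Zfp992* (ENSMUSG00000070605), a zinc finger gene with close paralogs among which reads may have been divided, was at 3.78 and 3.81 TPM, 0.98 and 1.08 TPM, 4.11 and 3 TPM and 3.53 and 3.39 TPM and so lay at the floor in 1 Control library. The Krüppel-like factor *Klf15* and *Aff3*, a nuclear protein of the elongation complexes, held 27.9% and 34.6% of the WT mean.

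Lipid, metabolite and metal handling was the widest class, with 11 members between 9.52% and 42.1% of the WT mean. *Abca12* (ENSMUSG00000050296), a lipid transporter known from the skin barrier, was at 18.6 and 17.7 TPM in WT, 1.87 and 1.59 TPM in CypD KO, 20.8 and 22.1 TPM in Control and 32.4 and 32.7 TPM in CypD OE. *Mest* (ENSMUSG00000051855), an imprinted gene whose product has a hydrolase fold, was at 60.9 and 57.7 TPM, 9.51 and 8.71 TPM, 21.7 and 21.6 TPM and 112 and 113 TPM in the same order. *Crabp2* (ENSMUSG00000004885), which carries retinoic acid to its receptors, was at 8.99 and 9.92 TPM, 1.06 and 1.5 TPM, 4.39 and 3.95 TPM and 4.21 and 5.26 TPM. For *Mest* and *Crabp2*, both Control libraries also lay below both WT libraries. Of 9 imprinted genes at the floor in a list drawn up by hand, *Mest* was the only member.

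*Dhrs2* (ENSMUSG00000022209), a short-chain dehydrogenase, was at 10.02 and 9.70 TPM in WT, 2.01 and 2.05 TPM in CypD KO, 16.7 and 15.5 TPM in Control and 17.05 and 14.3 TPM in CypD OE. *Tlcd4* (ENSMUSG00000028132), a membrane protein with a TLC domain, was at 22.0 and 22.7 TPM, 4.83 and 4.01 TPM, 15.6 and 16.8 TPM and 21.9 and 17.9 TPM in the same order. *Slc27a6* (ENSMUSG00000024600), a fatty acid transport protein, was at 8.96 and 10.4 TPM, 1.99 and 2.12 TPM, 7.66 and 7.29 TPM and 9.25 and 9.56 TPM. These genes differ in function, and their low level in CypD KO was required by the rule. *Cers1* (ENSMUSG00000087408), a ceramide synthase, was at 4.32 and 3.59 TPM, 0.99 and 1.27 TPM, 4.92 and 4.77 TPM and 4.93 and 3.70 TPM. *Gfpt2* (ENSMUSG00000020363), which feeds glucose into hexosamines, was at 4.34 and 4.34 TPM, 0.66 and 1.10 TPM, 3.96 and 3.25 TPM and 3.70 and 4.44 TPM. *Abcb6* (ENSMUSG00000026198), a porphyrin transporter, was at 23.7 and 21.9 TPM, 8.85 and 7.86 TPM, 18.0 and 22.1 TPM and 21.5 and 21.6 TPM. *Adhfe1* (ENSMUSG00000025911), a mitochondrial transhydrogenase, kept the largest share of its WT level of any member (42.1%), at 14.8 and 14.6 TPM in WT and 6.31 and 6.05 TPM in CypD KO, with 13.1 and 14.4 TPM in Control and 21.7 and 19.4 TPM in CypD OE. *Nt5dc2*, a protein with a nucleotidase domain, held 33.4%.

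The 3 immune genes were *Pycard* (ENSMUSG00000030793), the inflammasome adaptor ASC, *H2-Q4* (ENSMUSG00000035929), a non-classical MHC class I gene, and *Lck*, a Src-family kinase known from T cells. *Pycard* was at 13.3 and 12.7 TPM in WT, 3.05 and 3.03 TPM in CypD KO, 14.4 and 12.02 TPM in Control and 11.5 and 13.4 TPM in CypD OE. *H2-Q4* was at 4.49 and 4.99 TPM, 1.51 and 1.73 TPM, 7.11 and 7.30 TPM and 5.61 and 5.75 TPM, and its reads may have been shared with near-identical genes of the family. *Lck* held 19.7% of its WT mean, while *Cd3e* and *Cd3d*, which define T cells, were at 0 in every library. Interferon and antigen presentation genes as a list did not share the pattern, since the median CypD KO to WT ratio of the 8 at the floor was 2.47. No gene of the 34 measured was a member, and *H2-Q4* was not in this list, which was drawn up by hand. The 3 genes with a clone name, *D130058E05Rik*, *G530011O06Rik* and *2010008C14Rik*, held 30.5%, 37.9% and 34.5% of the WT mean.

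No member came from the lists of melanocyte lineage (29 genes at the floor), Wnt pathway (11), cell adhesion (21), receptor and MAPK feedback signalling (25), p53 targets (24), hypoxia targets (25), cell cycle (39) or ion channels and transporters (22). The lists were drawn up by hand and left out members of related function. The sodium channel *Scn1a* and the transporters *Abca12*, *Abcb6* and *Slc27a6* were not in the channel and transporter list. *Rab32* and *Adamts20* were not in the melanocyte list, and *Adgra2* was not in the Wnt list. With 0.565% of named genes at the floor being members, lists of this size would hold few at that rate, so these counts are a description.

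Members lay on all autosomes except 9 and 19, and on X. The coordinates here are those of GENCODE M39 on GRCm39. Chromosomes 1 and 4 held 7 members each, or 13.0% of members, against 5.64% and 6.39% of named genes at the floor. Chromosome 3 held 5 (9.26%, against 4.89%) and chromosome 6 held 4 (7.41%, against 5.04%), while chromosomes 9 and 19 held none, against 5.71% and 3.54%. Only 1 pair of start sites lay within 500 kb of each other, *Lpar5* and *2010008C14Rik* on chromosome 6. *2010008C14Rik* (ENSMUSG00000107761) is a single exon of 593 bases at 125060400 to 125060992, annotated as a transcript still to be experimentally tested, on the same strand as *Lpar5* and 964 bases beyond its end. It was at 13.1 and 19.4 TPM in WT, 6.34 and 4.87 TPM in CypD KO, 15.6 and 16.4 TPM in Control and 15.2 and 22.3 TPM in CypD OE. Transcription running past the annotated end of *Lpar5* and a separate gene could not be told apart from gene-level values.

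The genes beside the members mostly kept their level. Within 500 kb of a member's start site lay 356 other named genes at the floor, beside 47 of the 54 members. Their median CypD KO to WT ratio was 1.05, against 1.04 for the 9505 named genes at the floor that were not members, and 6 of them (1.69%) were at 50% of WT or less, against 0.810%. The 6 were *Ackr3* near *D130058E05Rik*, *Prss12* near *Ndst3*, *Evl* near *Ccdc85c*, *Bcan* near *Crabp2*, *Rrs1* near *Adhfe1* and *Hap1* near *Fkbp10*. *Enpp2* had 3 such neighbours, with ratios of 0.748 to 0.902, and *Hapln1*, *Epha3*, *Unc5c* and 4 others had none. The annotated bodies of 10 members overlapped a gene on the opposite strand that reached 3 TPM in at least 1 library. Among them were *Mest* with *Copg2* and *Cers1* with *Upf1*. In CypD KO, *Copg2* (52.3 and 62.5 TPM against 44.6 to 61.4 TPM elsewhere) and *Upf1* (60.1 and 61.1 TPM against 57.1 to 74.0 TPM) were near their other levels. Both CypD KO libraries lay below all others for *Gbx2*, opposite *D130058E05Rik* (0.21 and 1.1 TPM against 1.86 to 3.01 TPM). The same held for *Gm17494*, opposite *Bcar3* (12.7 and 14.6 TPM against 19.6 to 21.8 TPM), and less widely for *Zfand2b* opposite *Abcb6* and *Nt5c3b* opposite *Fkbp10*. For the remaining partners on the opposite strand, the ranges overlapped. On the same strand, *G530011O06Rik* overlapped *Gm15726*, which was also lower in both CypD KO libraries (3.73 and 4.17 TPM against 5.03 to 9.52 TPM). How far the counting kept the strands apart is not given in the sources used here.

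**Figure D3:**
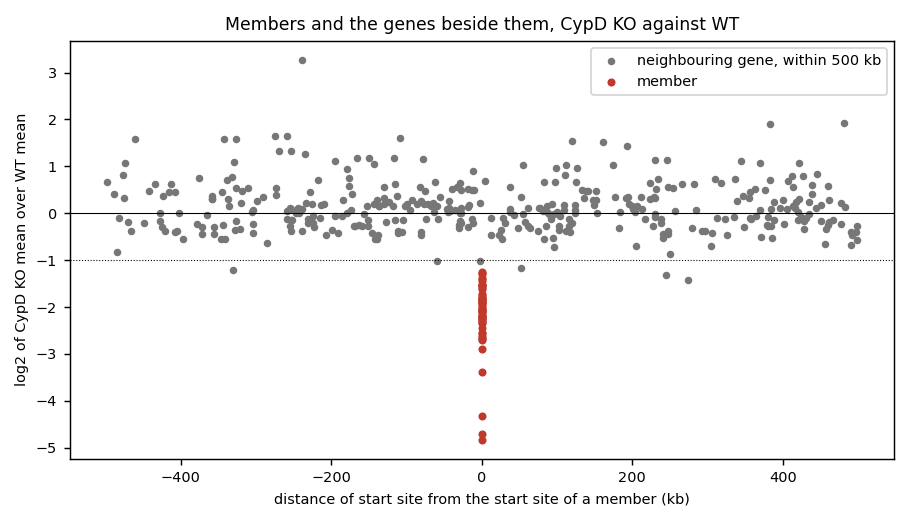
Each grey point is a named gene at 3 TPM or more within 500 kb of a member, placed by the distance between start sites in kb (positive downstream of the member) and by log2 of its CypD KO mean over its WT mean, and red points at 0 kb are the 54 members. Most grey points lie around 0 and 6 genes lie below -1 (dotted line), where all members lie.

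The start sites of members held fewer CpG dinucleotides at the median than those of all named genes at the floor. Promoter windows of 300 bases, 250 before to 50 after a RefSeq start site on GRCm38.p6, were matched for 39 members. The highest observed over expected CpG ratio of a gene's windows had a median of 0.605 in members, 0.827 in 7729 named genes at the floor and 0.415 in 27025 genes of all levels. A ratio of 0.6 or more, a usual mark of a CpG island, was reached by 20 of 39 members (51.3%) and by 84.3% of the genes at the floor. The property was not particular to genes low in CypD KO, since among the 388 genes with the reverse pattern 165 of 300 matched (55.0%) reached it, with a median of 0.647. Members were also less abundant than the genes they were set against, with a median of 14.3 TPM over the 6 other libraries against 29.9 TPM (3.78 TPM in the reverse set), and this difference in level was not taken out.

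**Figure D4:**
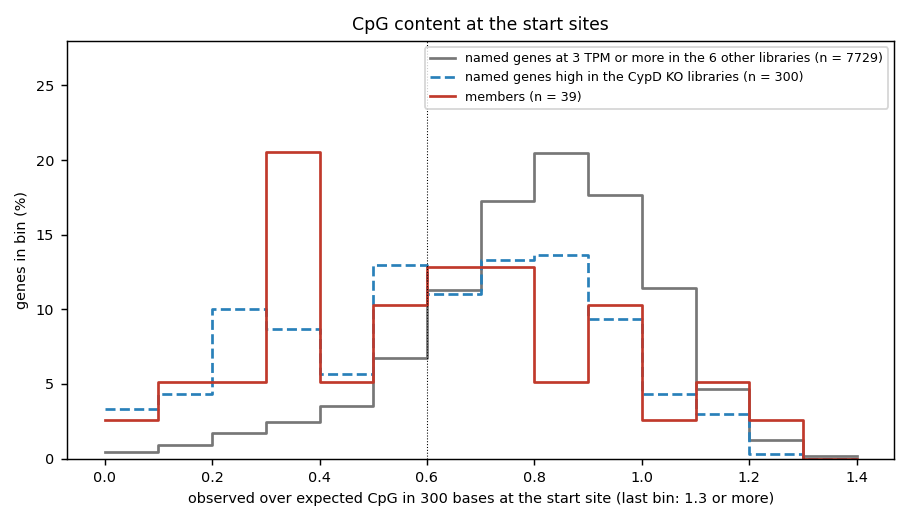
Lines give the percentage of genes in each bin of the observed over expected CpG ratio in 300 bases at the start site, for 39 members, 300 named genes high in CypD KO and 7729 named genes at 3 TPM or more in the 6 other libraries. Members and genes high in CypD KO both extend far below 0.6 (dotted line), where a smaller share of the other genes lies.

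The 250 bases before the start site are shown for the 4 of the 6 members with the largest ratio that were matched and for *Ppif*, 5′ to 3′ on the gene's strand, to show both kinds of start site in the group. Capitals mark CpG dinucleotides. The positions on GRCm38.p6 are chr13:89540386-89540635 (plus strand) for *Hapln1*, chr1:71414911-71415160 (minus) for *Abca12*, chr2:132030325-132030574 (minus) for *Rassf2*, chr4:98817538-98817787 (minus) for *Kank4* and chr14:25693920-25694169 (plus) for *Ppif*.
Hapln1: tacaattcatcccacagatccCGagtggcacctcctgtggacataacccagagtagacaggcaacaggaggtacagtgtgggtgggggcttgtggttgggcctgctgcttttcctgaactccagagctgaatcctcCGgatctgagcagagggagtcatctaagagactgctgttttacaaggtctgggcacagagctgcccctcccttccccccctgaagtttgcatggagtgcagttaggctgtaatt
Abca12: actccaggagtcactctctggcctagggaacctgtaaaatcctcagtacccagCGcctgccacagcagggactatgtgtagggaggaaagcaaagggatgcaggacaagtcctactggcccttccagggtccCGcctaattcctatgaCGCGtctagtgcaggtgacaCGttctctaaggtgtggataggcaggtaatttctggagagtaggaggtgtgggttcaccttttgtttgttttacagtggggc
Rassf2: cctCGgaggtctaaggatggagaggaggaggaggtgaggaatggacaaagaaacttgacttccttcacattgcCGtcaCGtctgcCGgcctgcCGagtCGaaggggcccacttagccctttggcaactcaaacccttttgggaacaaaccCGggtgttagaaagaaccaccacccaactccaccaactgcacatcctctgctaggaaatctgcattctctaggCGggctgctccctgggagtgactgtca
Kank4: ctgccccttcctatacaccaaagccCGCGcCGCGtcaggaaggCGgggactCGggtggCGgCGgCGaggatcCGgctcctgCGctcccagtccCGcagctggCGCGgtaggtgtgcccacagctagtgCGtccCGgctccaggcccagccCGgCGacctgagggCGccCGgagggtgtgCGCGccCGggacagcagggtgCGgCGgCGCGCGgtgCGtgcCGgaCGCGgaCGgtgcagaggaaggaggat
Ppif: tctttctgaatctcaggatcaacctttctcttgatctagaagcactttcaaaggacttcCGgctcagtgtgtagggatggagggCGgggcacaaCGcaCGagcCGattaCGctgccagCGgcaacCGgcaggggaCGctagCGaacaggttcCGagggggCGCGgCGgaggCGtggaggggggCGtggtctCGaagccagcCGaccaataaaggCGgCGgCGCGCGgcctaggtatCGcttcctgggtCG

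These stretches held 2 CpG in *Hapln1*, 5 in *Abca12*, 8 in *Rassf2*, 33 in *Kank4* and 25 in *Ppif*. The largest ratios were thus seen at start sites poor in CpG (*Hapln1*, ratio 0.136 over 300 bases) and at rich ones (*Kank4*, 0.930). The 12 short motifs were searched on both strands of each window of 300 bases, and a gene counted when any of its windows held the motif. A gene with more windows thus had more chances of a match, which was not corrected for. The E2 box CACCTG, which repressors such as the ZEB and Snail factors can bind, was in 13 of 39 members (33.3%), against 18.9% of genes at the floor and 22.6% of all genes. The M-box core CATGTG, a core of MITF sites, was in 7 (17.9%), against 9.78% and 15.9%. The GC box GGGCGG was in 24 (61.5%), against 72.4% and 38.2%, and the hypoxia-response core ACGTG, which overlaps the E-box CACGTG, was in 14 (35.9%), against 31.3% and 21.8%. The remaining motifs were the second hypoxia-response core GCGTG in 19 members (48.7%, against 59.3% of genes at the floor), the CCAAT box CCAAT in 15 (38.5%, 43.5%), the TATA box TATAAA in 5 (12.8%, 7.78%), the E-box CACGTG in 4 (10.3%, 12.5%), the SOX core AACAAT in 3 (7.69%, 6.60%), the AP-1 element TGACTCA in 2 (5.13%, 3.96%), and the CRE TGACGTCA and the E2F element TTTCGCGC in 0 (3.88% and 0.893%). These matches are descriptions of the letters and not of binding.

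The comparisons that the rule did not use directly were those among WT, Control and CypD OE, where CypD KO enters only the estimate of the spread. They were tested with limma on log2(TPM + 1) over 13526 genes, all 54 members included. Because the rule demanded a minimum in each of these 6 libraries, it limited how far a member could fall in any of them. Control was compared with WT first, a contrast of 1% with 21% oxygen and of vector with parental cells. Past an adjusted p of 0.05, 7 members were higher in Control (13.0%, against 12.1% of all genes tested and 14.4% of named genes at the floor) and 7 were lower (13.0%, against 12.1% and 15.5%), and 40 did not pass. The median log2 difference of members was -0.08 (-0.0458 without Control replicate 2), against 0.01 for all genes tested. Neither share of members was above that of the named genes at the floor. The counts rest on single libraries, since the higher count was 4 without WT replicate 1 or Control replicate 2, and the lower count was 4 without WT replicate 1 or Control replicate 1 and 3 without WT replicate 2 or Control replicate 2.

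*Mest* had the largest difference between Control and WT among members, with 60.9 and 57.7 TPM in WT and 21.7 and 21.6 TPM in Control (log2 difference -1.41, SE 0.06, limma adjusted p = 2.53e-05). *Crabp2* fell from 8.99 and 9.92 TPM to 4.39 and 3.95 TPM (-1.02, SE 0.15, limma adjusted p = 0.00448). These were the 2 members that passed the threshold and fell by more than 1 on the log2 scale, against 0.407% of all genes. Upward, the farthest member was at 0.69, while 1.34% of all genes passed and rose by more than 1. Of named genes at the floor, 0.199% fell and 0.805% rose by more than 1, passing or not. Smaller decreases were found for *Fndc4* (-0.73, SE 0.21, limma adjusted p = 0.0428), *Clvs1* (-0.63, SE 0.09, limma adjusted p = 0.00329) and *Tlcd4* (-0.44, SE 0.12, limma adjusted p = 0.0376), besides *Hapln1* and *Klf15*. In Control, the 2 libraries of each of these genes lay below both WT libraries.

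Among the members higher in Control, *Megf6* rose most, from 11.2 and 9.25 TPM to 17.2 and 17 TPM (0.69, SE 0.12, limma adjusted p = 0.00886). *Dhrs2* rose by 0.66 (SE 0.10, limma adjusted p = 0.00576) and *Cntfr* by 0.56 (SE 0.04, limma adjusted p = 2.09e-04). *H2-Q4* (0.52, SE 0.11, limma adjusted p = 0.0166) and *Pdpn* (0.44, SE 0.13, limma adjusted p = 0.0495) followed, with *Epha3* and *Aff3* the other 2 of the 7. Of the 14 members called, 7 passed under every alternative fit, and *Fndc4*, *Tlcd4*, *H2-Q4*, *Pdpn*, *Hapln1*, *Klf15* and *Aff3* did not, with *Pdpn* lost whichever library was left out (limma adjusted p = 0.0631 to 0.21). *Enpp2* was level between the groups, with a log2 difference of 0.04 (SE 0.06, limma adjusted p = 0.674), and *Ppif* was lower in both Control libraries, with a log2 difference of -0.21 (SE 0.07), without passing (limma adjusted p = 0.0826).

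**Figure D5:**
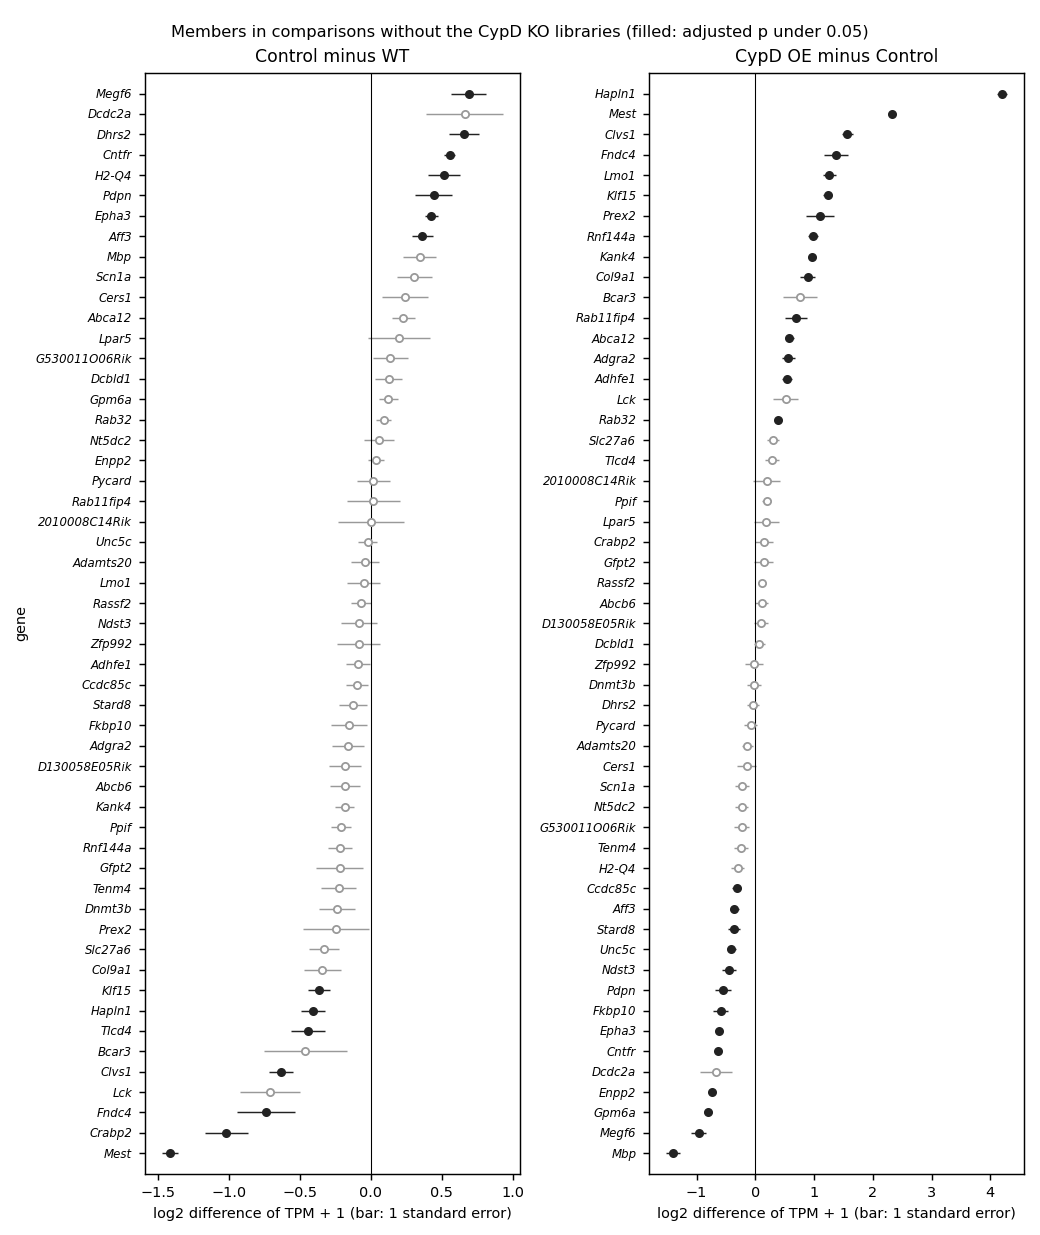
Points give the fitted log2 difference of TPM + 1 for 53 of the 54 members, with bars of 1 standard error, between Control and WT (left) and between CypD OE and Control (right), each panel in its own order and on its own axis, and filled points passed an adjusted p of 0.05 in limma. Filled points lie on both sides of 0 in both panels, 7 and 7 on the left and 15 and 13 on the right, with *Hapln1* at 4.21 farthest from 0.

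Between the libraries labelled CypD OE and Control, 28 members passed the threshold. Of the 54, 15 were higher in CypD OE (27.8%, against 19.0% of all genes tested and 22.6% of named genes at the floor), 13 were lower (24.1%, against 18.3% and 21.0%) and 26 did not pass. The median log2 difference of members was 0.10 (0.0553 without CypD OE replicate 2 and 0.0625 without Control replicate 2), against 0.00 for all genes, and the median size of the difference regardless of sign was 0.40, against 0.24 for all genes and 0.21 for named genes at the floor. Members therefore moved in both directions with no common sign. Without CypD OE replicate 2, the lower count was 8, and 19 of the 28 members called passed under every alternative fit. This comparison has the same Control libraries as the one before, so that a high or low value in Control enters both.

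*Hapln1* stood far from all other members, at 4.90 and 4.60 TPM in Control against 106 and 104 TPM in CypD OE, a ratio of means of 22.1 (4.21 on the log2 scale, SE 0.08, limma adjusted p = 7.65e-07). *Mest* rose 5.17-fold (2.32, SE 0.06, limma adjusted p = 1.44e-06), *Fndc4* 3.13-fold (1.38, SE 0.21, limma adjusted p = 0.00247), *Clvs1* 3.01-fold (1.57, SE 0.09, limma adjusted p = 3.80e-05) and *Lmo1* 2.48-fold (1.261, SE 0.11, limma adjusted p = 2.86e-04). With *Klf15* and *Prex2*, 7 members passed and rose by more than 1 on the log2 scale (13.0% of members, against 1.94% of all genes). The 2 libraries labelled CypD OE lay above both Control libraries for each of these 7 members. Of named genes at the floor, 1.18% rose by more than 1, passing or not. Of the 9 members of signalling and traffic, 2 fell (*Ccdc85c* and *Stard8*), 2 did not pass and 5 rose. The 5 were *Rab32*, *Rab11fip4*, *Prex2*, *Kank4* and *Rnf144a*, of which *Rab11fip4* and *Prex2* did not pass under every alternative fit. Among named genes at the floor, 22.6% rose and 21.0% fell, and this class too was drawn up with the values known.

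Among the members lower in CypD OE, *Mbp* fell most, from 19.11 and 18.7 TPM to 6.10 and 6.96 TPM (-1.40, SE 0.12, limma adjusted p = 1.99e-04). It was the only member to fall by more than 1, while 2.82% of all genes passed and fell by more than 1. Of named genes at the floor, 1.77% fell by more than 1, passing or not. *Megf6* fell by 0.97 (SE 0.12, limma adjusted p = 0.00129), *Gpm6a* by 0.81 (SE 0.07, limma adjusted p = 2.36e-04), *Enpp2* by 0.74 (SE 0.06, limma adjusted p = 1.32e-04) and *Cntfr* by 0.64 (SE 0.04, limma adjusted p = 4.74e-05). Of the 10 glial and neural members, 5 fell (*Mbp*, *Gpm6a*, *Cntfr*, *Epha3*, *Unc5c*), 1 rose (*Clvs1*) and 4 did not pass. Among named genes at the floor, 21.0% fell and 22.6% rose. The class was drawn up with the values known, so this count is a description. *Lpar5*, the receptor for the product of *Enpp2*, differed by 0.19 (SE 0.22, limma adjusted p = 0.543). *Ppif* was higher in both libraries labelled CypD OE, by 0.19 (SE 0.07), without passing (limma adjusted p = 0.0794). It passed in both comparisons when either CypD KO library was left out of the fit (limma adjusted p = 0.0325 to 0.0396).

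Levels in the 3 groups outside CypD KO did not follow 1 order across members. The lowest of the 3 group means was that of Control in 24 members, of CypD OE in 20 and of WT in 10, and the highest was that of CypD OE in 20, of WT in 18 and of Control in 16. In 37 members the 6 libraries lay within a factor of 2, and in 6 they spanned more than a factor of 3 (*Hapln1*, *Mest*, *Fndc4*, *Prex2*, *Clvs1* and *Mbp*). Values are given above in full for 38 members, and 15 others held 19.7% to 41.6% of their WT mean in CypD KO.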

How the data were processed

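Total RNA of 8 B16F10 libraries, 2 in each of 4 groups taken from the sample labels, was sequenced by the authors after depletion of ribosomal RNA, with paired reads of 150 bases. Per the submitters' processing notes and methods, reads were trimmed (Cutadapt 3.4), mapped to the Ensembl GRCm39 genome (STAR 2.7.8a) and quantified (RSEM 1.3.1). The deposited values are TPM with 2 decimals, with a sum set by the authors' scaling, so the depth of each library is not known from them. A large change in a few genes shifts the TPM of the rest, and RSEM divides reads among similar genes. The authors' own tests used counts and DESeq2 1.26.0, and counts were not used here.

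Members were found from the deposited TPM by the rule given with the results. The rule, the gene lists and the roles were chosen with earlier results of these data known. The 13526 genes that reached 1 TPM in 2 or more libraries were tested on the log2(TPM + 1) scale, which understates changes at low TPM, using limma (version 3.58.1, R version 4.3.3) with 1 mean per group and an eBayes trend. Tests were two-sided, with Benjamini-Hochberg adjustment over all genes tested and a threshold of 0.05. CypD KO entered these fits only for the estimate of the spread, and its own differences were not tested, since they chose the members. Libraries of the same group correlated at 0.983 to 0.985 across genes, which are no independent replicates. An exact permutation test of 2 libraries against 2 cannot go below p = 0.333 and was not used. The limma step was first tested on simulated data.

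Values in every library were given for *Ppif*, the 25 members with the largest ratio, the 10 most abundant, the 5 with the largest difference in each direction of each comparison, members in a gene list, the 5 nearest the limit and members within 500 kb of another. Positions came from GENCODE M39 on GRCm39, which matched 98.8% of the table's genes, and promoters from RefSeq on GRCm38.p6. *Adgra2*, *Adhfe1*, *Slc27a6*, *Crabp2*, *Dcbld1*, *2010008C14Rik*, *Clvs1*, *Mbp*, *Prex2*, *Zfp992*, *Fkbp10*, *Rab11fip4*, *Enpp2* and *D130058E05Rik* had no entry among the promoters matched. The values of 1 member and the result of 1 gene list are not reported here, and that member is counted among the 54. Alternatives were a pseudocount of 0.1, no filter, a filter of 5 TPM, median-of-ratios scaling, fits of 4 libraries, a replicate block, eBayes without trend, other limits of the rule and leaving out each library.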

Additional observations from a re-analysis of the deposited data

How the results depend on the processing

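The number of members was 54 under the rule as given, 125 with a ratio of 1.5 and 20 with a ratio of 3. With another floor, with median-of-ratios scaling, which gave 65 and held all 54, or with 1 library left out of the rule, it stayed within 1.5 times (56 to 70 with 1 library left out). With each library left out of the fits in turn, 4 to 7 members were higher and 3 to 8 lower in Control than in WT, and 13 to 17 were higher and 8 to 14 lower in CypD OE than in Control, with the 8 found without CypD OE replicate 2. The low ends for Control came without WT or Control libraries. The median log2 difference of members then ranged from -0.115 to -0.0458 for Control minus WT, nearest to 0 without Control replicate 2, and from 0.06 to 0.10 for CypD OE minus Control, lowest without CypD OE replicate 2 (0.0553) and without Control replicate 2 (0.0625). A group left with 1 library was assumed to vary like the others. No setting but these moved a count by over 1.5 times. The replicate block, on the suffix of the library name, gave 6 higher and 6 lower in Control and 15 higher and 13 lower in CypD OE. The suffixes share only a number, since across 13526 genes the deviations of same-numbered libraries correlated at -0.0186 between Control and WT and at -0.00175 between CypD OE and Control. Over all genes, the block gave 2886 calls in place of 3269 and 4735 in place of 5057.

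For the members called and *Ppif*, 44 differences were refitted under each setting. None changed sign, 26 kept their side of the threshold throughout and 18 crossed it under at least 1 setting, and the cause was not tested. Between CypD OE and Control, *Adgra2*, *Aff3*, *Ccdc85c*, *Fkbp10*, *Ndst3*, *Pdpn*, *Prex2*, *Rab11fip4* and *Stard8* were the 9 that no longer passed under some setting. The fits could resolve little for members of a few TPM, with standard errors of 0.29 for *Bcar3*, 0.21 for *Lck* and 0.17 for *Gfpt2* on the log2 scale. Whether that spread is counting error was not tested, since TPM gives no depth.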

Other observations

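The 10 genes left out by symbol met the same limits by construction. The lncRNA *Gm10451* was at 10.45 and 11.4 TPM in WT, 0.49 and 0.29 TPM in CypD KO, 15.8 and 14.1 TPM in Control and 13.2 and 9.32 TPM in CypD OE. The lncRNA *Gm34425* was at 18.3 and 15.8 TPM, 3.1 and 2.62 TPM, 12.1 and 14.3 TPM, and 26.2 and 28.3 TPM in the same order, so that both CypD OE libraries lay above both Control libraries. The lncRNA *Gm10134* was at 5.48 and 4.6 TPM in WT and at 0.12 TPM and 0 in CypD KO. *Gm973*, a protein-coding gene, was at 13.1 and 12.2 TPM in WT and 1.21 and 3.61 TPM in CypD KO.

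The other 4 predicted genes were 2 processed pseudogenes, *Gm15455* and *Gm6652*, the lncRNA *Gm19385* and *Gm22270*, a small nucleolar RNA of 132 bases listed at 0 in both CypD KO libraries and at 14.7 to 61.6 TPM elsewhere. The 2 features without a symbol were annotated as a microRNA and as a protein-coding gene with transcripts of 125 and 180 bases. These 3 short features each differed by more than 2 times between the 2 libraries of at least 1 group. None of the genes left out was tested here.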
